A study of Mus musculus with 10 samples.

Results

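The pocket protein genes Rb1, Rbl1 and Rbl2 were followed in bulk RNA sequencing of mouse liver organoids. The genes were taken by symbol from the count tables, where each symbol matched a single gene, so the family makes up 3 of 49585 genes. The series describes early and macroscopic lesions of hepatocellular carcinoma in mice in which the Rb family is knocked out. By its labels it holds 10 samples in 5 groups of 2, all from untreated liver cells sorted for YFP, a reporter of Cre recombination of floxed alleles. The groups used here are Sox9-derived organoids and Ck19-derived organoids, with 2 libraries each. The transcription factor Sox9 marks bile ducts and liver progenitors, and Ck19 is the bile duct keratin encoded by Krt19. A further pair of count columns is named Sox9 with the tag TKO. Its name fits the same Sox9-derived label, which carries no such tag, and it is described apart as the TKO-tagged pair. No label gives the genotype, strain, age, sex or Cre driver of any library, nor says that the libraries of a pair came from separate animals or cultures. The p-values below therefore measure only the spread between these libraries, which may be technical.

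The 3 proteins share a pocket that holds E2F transcription factors. In resting cells pRB (Rb1) binds mainly the activator E2Fs, while p107 (Rbl1) and p130 (Rbl2) bind the repressors E2F4 and E2F5 and join the MuvB core in the DREAM complex, which shuts down cell cycle genes. Cyclin-dependent kinases phosphorylate the pocket proteins in G1 and free the E2Fs. Rbl1 is itself a known E2F target gene, and Rbl2 is known as the family member of resting cells. In the liver, loss of the whole family lets hepatocytes and progenitor cells enter the cell cycle and leads to carcinoma. The mouse model of that name, as known from the work that introduced it, combines floxed Rb1 and Rbl2 alleles with a germline deletion of Rbl1.

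RefSeq promoter windows (GRCm38.p6, 250 bases before to 50 after the gene's start) were found for Rbl1 and Rbl2. They are shown because Rbl1 and Rbl2 differ in them by an E2F-type motif, searched on both strands as TTTNNCGC and printed in capitals. The Rbl1 window lies on the minus strand at chr2:157204485-157204784 and the Rbl2 window on the plus strand at chr8:91069807-91070106.
Rbl1: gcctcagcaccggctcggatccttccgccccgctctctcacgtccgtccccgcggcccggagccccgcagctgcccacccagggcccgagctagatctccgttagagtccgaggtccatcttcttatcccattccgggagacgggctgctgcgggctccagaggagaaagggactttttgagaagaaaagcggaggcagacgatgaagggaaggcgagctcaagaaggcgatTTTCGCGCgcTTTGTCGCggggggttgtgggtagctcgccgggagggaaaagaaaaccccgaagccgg
Rbl2: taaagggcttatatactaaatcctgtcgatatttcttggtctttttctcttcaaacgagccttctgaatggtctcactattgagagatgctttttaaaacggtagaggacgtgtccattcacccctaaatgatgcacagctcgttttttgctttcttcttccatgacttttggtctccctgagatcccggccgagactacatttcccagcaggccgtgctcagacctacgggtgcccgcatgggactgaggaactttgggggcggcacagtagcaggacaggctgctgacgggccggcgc

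The Rbl1 window holds 2 such motifs in a row, TTTCGCGC starting at base -18 and TTTGTCGC at base -8, where base -1 is the last before the start. The Rbl2 window holds none. The motif occurs in 5.17% of all 32851 promoter windows of that set, against 12 of 27 windows of a list of E2F target genes of G1/S and 0 of 17 windows of a list of G2/M genes. The motif TTTGAA, known as the CHR and bound by MuvB, is absent from the Rbl1 window and present once in the Rbl2 window, at base -201 on the opposite strand. It was in 17.9% of all windows, 4 of 27 G1/S windows and 14 of 17 G2/M windows. The motifs do not overlap each other in these windows. The motif TTTNNCGC contains a CpG, and the Rbl1 window is richer in CpG than the Rbl2 window (29 against 14 CpG, and 64.0% against 50.7% GC). A match of letters is not a binding site, and no binding was measured.

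Before the levels, the libraries were checked against their labels. They held 53280136 and 59664959 fragments assigned to genes in the TKO-tagged pair and between 31883180 and 36606008 in the organoid pairs. The TKO-tagged libraries went against the organoid label. A list of 6 biliary epithelial markers summed to 585 and 1177 CPM in them (CPM are the fragments of a gene scaled to the same total of assigned fragments per library), against 13889 to 31461 CPM in the organoid libraries. Of these markers 0 and 1 were at 0 in the TKO-tagged libraries, with Krt19 at 0.619 and 1.61 CPM and Epcam at 8.99 and 5.61 CPM. Krt7 was at 0.657 and 0 CPM, while Spp1 was at 394 and 1018 CPM and Cdh1 at 117 and 45.6 CPM. Sox9 itself stood at 63.8 and 106 CPM, which overlapped with 97.0 and 78.4 CPM in the Ck19-derived organoids. In the Sox9-derived organoids it was at 567 and 562 CPM. The 6 hepatocyte markers summed to 50879 and 39664 CPM in the TKO-tagged libraries, against 123 to 545 CPM in the organoid libraries. The TKO-tagged libraries also held markers of other cells, with sums of 302 and 155 CPM for mesenchymal, 99.9 and 70.1 CPM for endothelial, 752 and 678 CPM for myeloid, 15.1 and 7.16 CPM for lymphoid and 301 and 2538 CPM for erythroid genes. In the organoid libraries these sums were at most 1.25 CPM, except 18.4 to 84.9 CPM for the myeloid list, where only Csf1r and Cd68 of the 6 genes reached 1 CPM. The TKO-tagged pair is therefore kept out of the comparison of the organoids, and its values are given apart from it.

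Rb1 encodes pRB, the founding tumour suppressor of the family (ENSMUSG00000022105, GRCm38 chromosome 14, 73183673 to 73325822, minus strand). It was found at 14.5 and 12.6 CPM in Sox9-derived organoids, against 21.0 and 21.8 CPM in Ck19-derived organoids, from 418 to 715 fragments per library. Both Sox9-derived libraries lay below both Ck19-derived libraries, and the counting intervals did not meet (at most 15.8 CPM against at least 19.5 CPM, exact Poisson, 95%). The means were 13.5 ± 1.32 and 21.4 ± 0.579 CPM (SD, n = 2 each), so Rb1 was 1.58-fold lower in the Sox9-derived organoids by the ratio of means. This difference was not called by edgeR's quasi-likelihood test (log2 fold change −0.66, SE 0.25, adjusted p = 0.297). Pairs that do not overlap were common: 51.0% of 16653 tested genes were so placed, 26.3% with the Sox9-derived pair lower. Intervals here cover counting error only and treat each fragment as independent. With 0 fragments left out as duplicates, any PCR copies were counted as fragments, so the intervals may be too narrow.

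Rbl1 encodes p107 (ENSMUSG00000027641, chromosome 2, 157145893 to 157204534, minus strand). It had 2.84 and 1.30 CPM in Sox9-derived organoids, against 4.05 and 1.86 CPM in Ck19-derived organoids, from 104, 43, 129 and 61 fragments. The pairs overlapped, and the libraries within a pair differed more than the pair means. In both pairs replicate 1 was the higher, by 2.19-fold in the Sox9-derived pair (counting interval 1.52 to 3.20) and by 2.17-fold in the Ck19-derived pair (1.59 to 3.0). The means were 2.07 ± 1.09 and 2.95 ± 1.54 CPM (SD, n = 2 each), and the log2 fold change of −0.52 had an SE of 0.71 (edgeR adjusted p = 0.773). Its sign depended on a single library: without Ck19-derived replicate 1 it was 0.16.

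Rbl2 encodes p130 (ENSMUSG00000031666, chromosome 8, 91070057 to 91123844, plus strand). It had 8.77 and 7.36 CPM in the Sox9-derived organoids, against 7.78 and 6.99 CPM in the Ck19-derived organoids. The pairs overlapped and the means of 8.06 ± 0.997 and 7.39 ± 0.555 CPM (SD, n = 2 each) lay within the spread of the libraries. The log2 fold change was 0.13 with an SE of 0.35 (edgeR adjusted p = 0.895). Of the pocket protein genes 0 of 3 were thus called in the organoids, where edgeR called 0.570% of all tested genes, 0.186% as higher and 0.384% as lower. At an unadjusted p under 0.05 Rb1 was among 2792 genes (16.8% of all tested), and neither DESeq2 nor limma-voom called a family member.

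**Figure D1:**
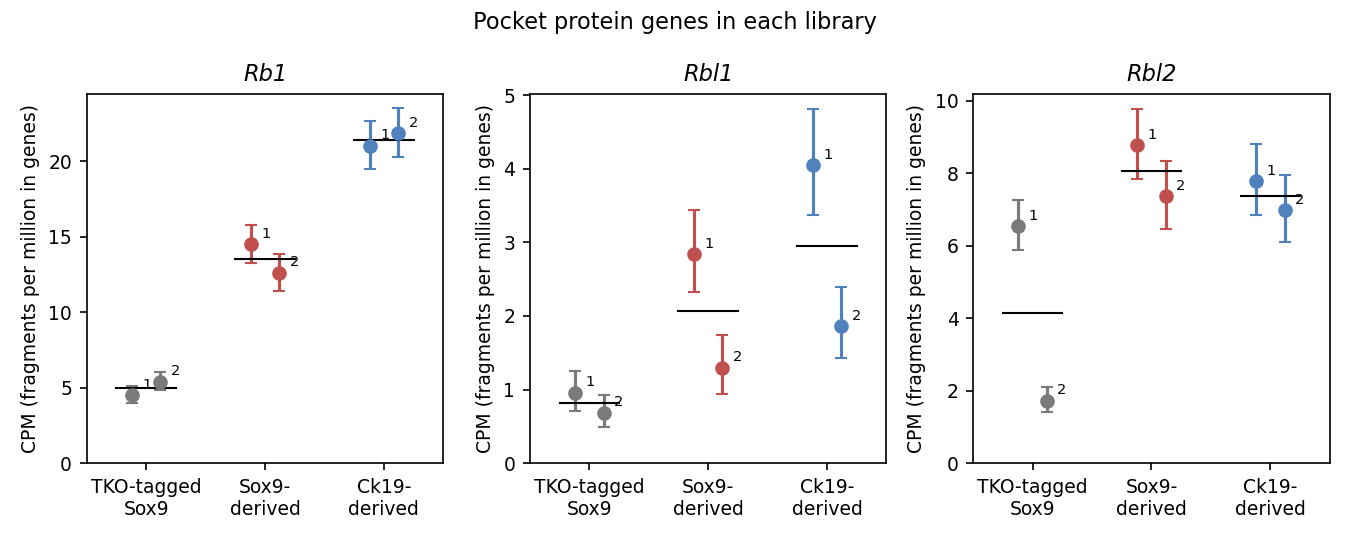
CPM of Rb1, Rbl1 and Rbl2 in each library (points, with replicate numbers), with exact 95% Poisson intervals of the counts as bars and the mean of each pair as a black line. The Sox9-derived pair lies below the Ck19-derived pair for Rb1 alone, Rbl1 splits by replicate in both organoid pairs, and Rbl2 splits within the TKO-tagged pair.

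The genes are compared with each other per exon length. On this scale Rb1 was the most abundant pocket protein gene in all 4 organoid libraries and Rbl1 the least. The counts were summed over all exons and no label gives a genotype. These levels and the shares below therefore cannot show whether the alleles of the organoids were intact. In the Sox9-derived organoids the levels were 2.25 ± 0.220 for Rb1, 1.07 ± 0.132 for Rbl2 and 0.345 ± 0.182 CPM per exon kb for Rbl1 (SD, n = 2). In the Ck19-derived organoids they were 3.56 ± 0.0963, 0.977 ± 0.0735 and 0.493 ± 0.258 CPM per exon kb (SD, n = 2), in the same order of genes. No 2 neighbours in either order had overlapping libraries. Rb1 and Rbl2 lay near the middle of all detected genes by this measure, with Rb1 above 56.8% to 68.6% and Rbl2 above 47.8% to 55.0% of them. Rbl1 lay above 30.9% to 50.5%.

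The share of each gene in the family is given per library, as a description that follows from the levels above, where no difference was called and the Rbl2 levels overlapped. Rb1 gave 59.6% and 63.8% of the summed pocket protein level in the Sox9-derived libraries, against 67.2% and 74.6% in the Ck19-derived libraries. Rbl2 gave 28.7% and 29.6%, against 19.8% and 19.0%, and the pairs did not overlap in either share. Rb1 stood 2.07 and 2.15 times as high as Rbl2 in the Sox9-derived libraries, against 3.39 and 3.92 times in the Ck19-derived libraries. The share of Rbl1 overlapped, at 11.7% and 6.59%, against 13.0% and 6.39%. With 2 libraries against 2, an exact permutation test cannot give a two-sided p below 0.333, so these shares carry no test.

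**Figure D2:**
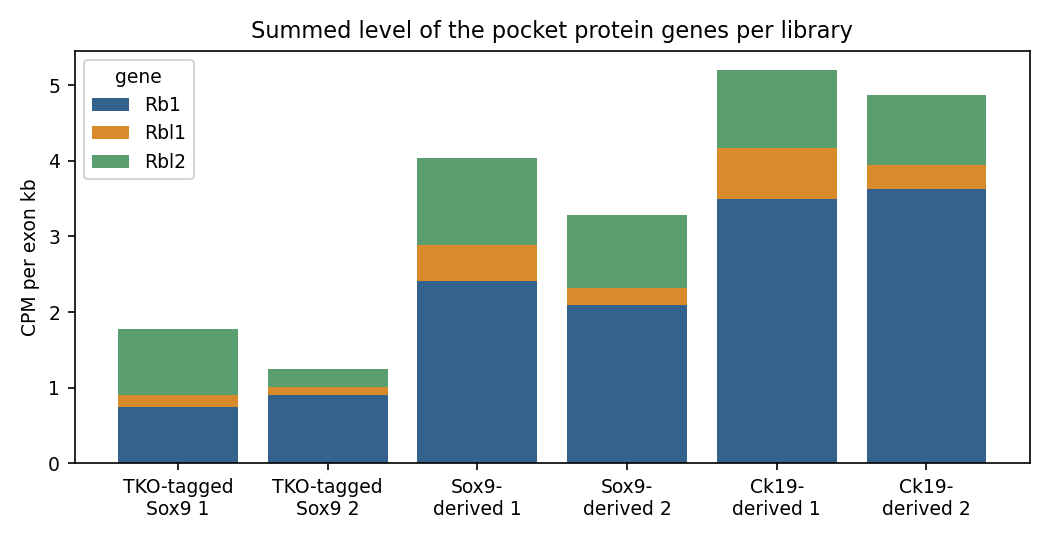
Level of Rb1, Rbl1 and Rbl2 in CPM per exon kb, stacked for each library of the TKO-tagged, Sox9-derived and Ck19-derived pairs. The stacks reach 1.78 and 1.24 in the TKO-tagged libraries, 4.04 and 3.29 in both Sox9-derived libraries, and 5.20 and 4.87 in the Ck19-derived libraries, and Rb1 is the largest part in all but TKO-tagged replicate 1.

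The gene models limit what these counts can hold. The authors' counting ignored strand and left out fragments that fall on 2 genes, so exon bases shared with another gene add little to a count. Rb1 shares 896 of its 6015 exon bases (14.9%), 488 with Rcbtb2 and 408 with Lpar6, a lysophosphatidic acid receptor gene inside the Rb1 locus, both on the other strand. Rbl2 shares 1585 of 7558 exon bases (21.0%), 892 with the predicted gene Gm45464 and 693 with Aktip, which encodes an adaptor of the kinase Akt. Rbl1 shares none of its 5993. Without strand, reads from overlapping genes on opposite strands cannot be told apart.

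The overlapping genes were measured beside the members. Rcbtb2 had 69.4 and 68.0 CPM in the Sox9-derived organoids, against 35.0 and 33.7 CPM in the Ck19-derived organoids. Its log2 fold change was 1.00 with an SE of 0.18 (edgeR adjusted p = 0.104), the opposite sign to that of Rb1. Lpar6 had 153 and 172 CPM, against 89.6 and 109 CPM, with a log2 fold change of 0.72 (edgeR adjusted p = 0.164). Aktip had 103 and 105 CPM in the Sox9-derived organoids, against 117 and 109 CPM in Ck19-derived organoids, and Gm45464 had 1 fragment over all 4 libraries together. None of these differences between the organoids was called. With the unshared exon bases as the length, the mean shares of Rb1 were 61.1% and 70.9% and those of Rbl2 31.1% and 20.9%, in the Sox9-derived and the Ck19-derived organoids.

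**Figure D3:**
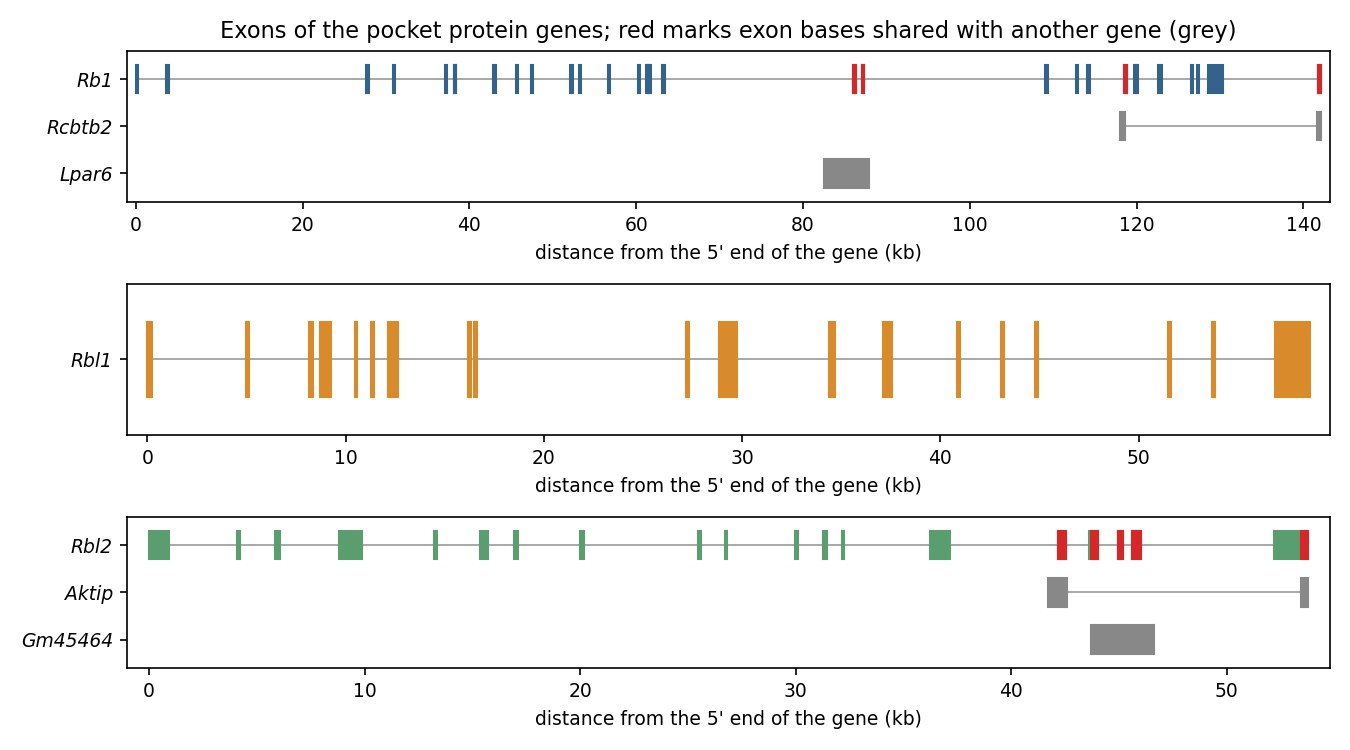
Exons of Rb1, Rbl1 and Rbl2 as boxes along the distance from the gene's 5′ end in kb, with exon bases shared with another gene in red and the exons of that gene in grey. Very narrow boxes are widened to be visible, and each panel has its own scale. Shared bases lie in the later part of Rb1 and at the 3′ part of Rbl2, and Rbl1 has none.

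Binding partners of the pocket proteins were set on the same scale per exon kb. E2f4, the repressor bound by p107 and p130, stood at 29.0 ± 2.10 CPM per exon kb in the Sox9-derived and 32.7 ± 5.75 in the Ck19-derived organoids (SD, n = 2 each). E2f1, an activator bound by pRB, stood at 35.0 ± 1.73 and 19.7 ± 7.18 CPM per exon kb, and the dimer partner Tfdp1 at 47.9 ± 14.9 and 42.1 ± 2.98. The other activators were low, with E2f2 at 0.854 ± 0.242 and 0.740 ± 0.126 and E2f3 at 1.00 ± 0.370 and 1.06 ± 0.436 CPM per exon kb. By edgeR 0 of 10 E2F and DP genes were called, and 2 had an unadjusted p under 0.05, against 16.8% of all tested genes. Of the 10, 5 had a log2 fold change above 0 (50.4% of all tested genes did). The median of the list was −0.0042, against 0.0060 over all tested genes. The log2 fold changes of E2f1 (0.83, edgeR adjusted p = 0.266) and Tfdp2 (0.64, edgeR adjusted p = 0.224) were the largest of the list in size.

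Among the kinases and cyclins that phosphorylate pocket proteins, edgeR called 0 of 11 genes and the median was 0.28. DESeq2 called Ccne2 higher and Ccnd1 lower, where it called 1512 of all 16653 tested genes, 649 higher and 863 lower. Ccnd2, a D-type cyclin, stood at 223 and 0.181 CPM in Sox9-derived organoids, against 383 and 459 CPM in the Ck19-derived organoids. Ccnd1, the cyclin that starts pRB phosphorylation with Cdk4 or Cdk6, stood at 141 and 28.7 CPM, against 258 and 405 CPM. For both cyclins the Sox9-derived pair lay below the Ck19-derived pair, and its own libraries differed widely. The E-type cyclin Ccne2 had 61.1 and 35.3 CPM, against 12.7 and 17.2 CPM, and its log2 fold change was 1.69 (edgeR adjusted p = 0.125). Ccne1 had 97.8 and 11.0 CPM, against 27.5 and 37.5 CPM, with overlapping pairs.

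Of 7 CDK inhibitors, which keep pocket proteins in their active form, edgeR called 0 and the median was 0.43. An unadjusted p under 0.05 by edgeR was found for 2, against 16.8% of all tested genes. DESeq2 called Cdkn1a (p21) lower, as it did 863 of all 16653 tested genes. Cdkn2c (p18) had 41.9 and 85.0 CPM in the Sox9-derived organoids, against 26.0 and 31.8 CPM in the Ck19-derived organoids. Cdkn1c (p57) had 26.1 and 12.9 CPM against 12.9 and 6.26 CPM, and Cdkn1b (p27) had 35.2 and 47.8 CPM against 27.7 and 15.5 CPM. Cdkn2b (p15) was the other way round, at 153 and 68.1 CPM against 229 and 172 CPM. The MuvB list, with its activators Mybl2 and Foxm1, had 0 of 7 called by edgeR and a median of 0.14. DESeq2 called Mybl2 and Rbbp4 higher, where it called 649 of all 16653 tested genes higher. Mybl2 had 36.7 and 60.3 CPM in the Sox9-derived organoids, against 18.2 and 21.5 CPM, and the histone chaperone gene Rbbp4 had 808 and 792 CPM, against 468 and 324 CPM. Of 14 corepressors of pocket proteins edgeR and DESeq2 called 0, 1 had an unadjusted p under 0.05 by edgeR and the median was 0.21, with Sin3a at 21.3 and 34.3 CPM against 18.1 and 13.1 CPM and Arid4a, which encodes a pRB-binding protein, at 24.0 and 39.5 CPM against 49.1 and 53.7 CPM.

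The genes that pocket proteins repress had mostly positive log2 fold changes in the Sox9-derived organoids, and whether they were called depended on the tool. For the E2F targets of G1/S edgeR and limma-voom called 0 of 26 and DESeq2 called 8, all higher (Pcna, Mcm2, Mcm4, Orc1, Pola1, Uhrf1, Dnmt1 and Slbp). Over all 16653 tested genes DESeq2 called 649 higher and 863 lower. By edgeR 12 of the 26 had an unadjusted p under 0.05, all higher, against 16.8% of all tested genes in either direction. Of the 26, 24 had a log2 fold change above 0 (50.4% of all tested genes did) and the median was 0.47. Of these, 18 had both Sox9-derived libraries above both Ck19-derived libraries, a placing found for 24.6% of all tested genes. Pcna, which holds DNA polymerase on its template, was measured at 374 and 344 CPM in Sox9-derived organoids, against 152 and 175 CPM in Ck19-derived organoids. Its log2 fold change was 1.14 with an SE of 0.17 (edgeR adjusted p = 0.0789), and edgeR called it when the filter was lowered to 1 count. Rrm2, a subunit of ribonucleotide reductase, went against the list at 186 and 554 CPM, against 893 and 872 CPM. None of the 18 G2/M genes was called by edgeR or DESeq2, and 2 had an unadjusted p under 0.05 by edgeR. They had a median of 0.51 and 14 above 0, and 6 of them had the Sox9-derived pair higher without overlap. Mki67, a proliferation marker, stood at 71.2 and 195 CPM, against 48.3 and 63.0 CPM. The 4 G2/M genes named by the fixed rule (Mki67, Tpx2, Cdc20 and Cenpf) were higher in replicate 2 than in replicate 1 of all 3 pairs. Of the same list Plk1, Bub1 and Aurkb did not keep this order in every pair. Of the G1/S list Pcna was higher in replicate 1 of the Sox9-derived pair and in replicate 2 of the Ck19-derived pair. Rbl1, listed in neither group although a known E2F target, was higher in replicate 1 of all 3 pairs, with a counting interval that included 1 in the TKO-tagged pair (1.39-fold, 0.905 to 2.16). These counts and medians describe the lists and carry no test.

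**Figure D4:**
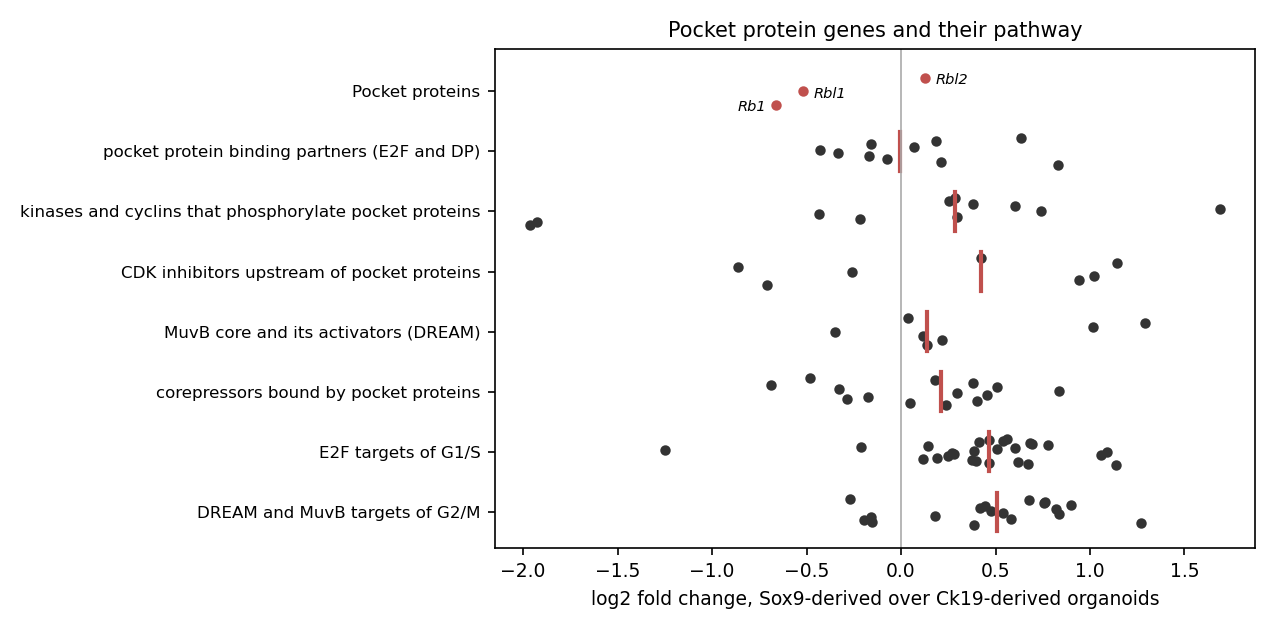
Log2 fold change, Sox9-derived over Ck19-derived organoids, of each pocket protein gene (red points) and each gene of 7 pathway lists (dark points), with the list median as a red bar. Rb1 and Rbl1 lie below 0 and Rbl2 just above it, while the medians of the G1/S and G2/M targets are 0.47 and 0.51.

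The TKO-tagged pair had less of every pocket protein transcript by CPM, but not none. The counts were summed over all exons of a gene, so they cannot show whether an exon is missing, and no genotype can be read from them. Rb1 stood at 4.50 and 5.40 CPM (240 and 322 fragments), Rbl1 at 0.957 and 0.687 CPM (51 and 41 fragments) and Rbl2 at 6.55 and 1.73 CPM (349 and 103 fragments). All 3 genes lay below all 4 organoid libraries. For Rb1 the counting intervals did not meet (at most 6.02 CPM against at least 11.4 CPM). For Rbl1 they met, reaching 1.26 CPM in TKO-tagged replicate 1 and 0.939 CPM in Sox9-derived replicate 2. For Rbl2 they met too, reaching up to 7.27 CPM in TKO-tagged replicate 1 and down to 6.12 CPM in Ck19-derived replicate 2. By CPM 76.9% of 16653 genes did not overlap with the Ck19-derived pair, 64.3% being lower, and 74.2% did not overlap with the Sox9-derived pair, 61.8% being lower. The family's place was thus that of most genes tested in the organoids. Rb1 averaged 4.95 ± 0.631 CPM (SD, n = 2), against 13.5 and 21.4 CPM in the Sox9-derived and the Ck19-derived organoids. Rbl2 differed 3.79-fold between the 2 TKO-tagged libraries (counting interval 3.04 to 4.77), more than any pocket protein gene within the other pairs. Rb1 stood 0.864 times as high as Rbl2 per exon kb in TKO-tagged replicate 1 and 3.93 times as high in replicate 2, so Rbl2 led the family in the first of these libraries.

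The TKO-tagged pair was tested against the Ck19-derived pair, as the other reading of the Sox9-derived label. This comparison shares the Ck19-derived libraries with the one above. After TMM scaling, which sets the bulk of genes near 0 (median log2 fold change −0.07, against −0.82 with library totals), edgeR called Rb1 lower with a log2 fold change of −1.36 (SE 0.37, adjusted p = 0.0496). The same value was −2.11 (adjusted p = 0.0136) with library totals, and −1.32 (adjusted p = 0.0520), no longer called, with relative log expression factors. Rbl1 had −1.09 (SE 0.76, edgeR adjusted p = 0.344) and Rbl2 −0.06 (SE 0.77, edgeR adjusted p = 0.962). Rbl2 had a log2 fold change of −1.35 without TKO-tagged replicate 1 and 0.68 without TKO-tagged replicate 2. So 1 of 3 members was called, where edgeR called 28.9% of 17938 tested genes, 14.0% as lower. With library totals 72.5% of called genes were lower, against 48.3% with TMM scaling. Of the genes that share exon bases with Rb1, Rcbtb2 was called higher (1.93, edgeR adjusted p = 0.00667) and Lpar6 lower (−1.33, edgeR adjusted p = 0.0194). Aktip, which shares bases with Rbl2, was called lower (−1.78, edgeR adjusted p = 0.00825). The part of shared bases in the Rb1 difference was not tested. The markers of hepatocytes and of other cell types moved with this comparison as given above, and their part in the Rb1 difference was not tested. In bulk RNA, fewer cells of a type and less RNA per cell cannot be told apart. The tables of the 2 pairs were counted in separate runs of the same program, so pair and run cannot be told apart either.

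Upstream and downstream genes of the pathway did not move one way in the TKO-tagged pair. Against the Ck19-derived pair edgeR called 15.0% of all 17938 tested genes as higher and 14.0% as lower, and the counts below carry no test. Of the 3 D-type cyclins Ccnd1 and Ccnd2 fell and Ccnd3 was not called, at 74.9 and 52.8 CPM in the TKO-tagged libraries, against 106 and 85.4 CPM in the Ck19-derived organoids (log2 fold change 0.18 after TMM scaling, edgeR adjusted p = 0.707). Ccnd1 stood at 15.0 and 5.36 CPM (log2 fold change against the Ck19-derived pair −4.24, edgeR adjusted p = 0.0115) and Ccnd2 at 29.4 and 13.8 CPM (−3.51, edgeR adjusted p = 0.00871). Cdk4 also fell (−1.40, edgeR adjusted p = 0.0181), as did Tfdp1 (−1.34, edgeR adjusted p = 0.0149). Cdkn2a, the locus of p16 and p19ARF, fell to 0.282 and 0.151 CPM in the TKO-tagged libraries, against 7.09 and 5.71 CPM in the Ck19-derived organoids (edgeR adjusted p = 0.0197). Cdkn2c rose (1.45, edgeR adjusted p = 0.0419), and the other 5 of 7 CDK inhibitors were not called. In the MuvB list Mybl2 rose (1.21, edgeR adjusted p = 0.0460) and 6 of 7 were not called. Of 10 E2F and DP genes 1 fell, of 11 kinases and cyclins 3 fell and of 14 corepressors 3 fell, with 0 called higher. Of 26 G1/S targets 3 rose, among them Gins1 and Rfc4, 3 fell, among them Mcm3 and Rrm1, and 20 were not called, with a median of 0.08. Of 18 G2/M genes Mki67 rose, Kif23 and Prc1 fell and 15 were not called, with a median of −0.04. Genes named here beyond the fixed rule were chosen after their values were seen.

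**Figure D5:**
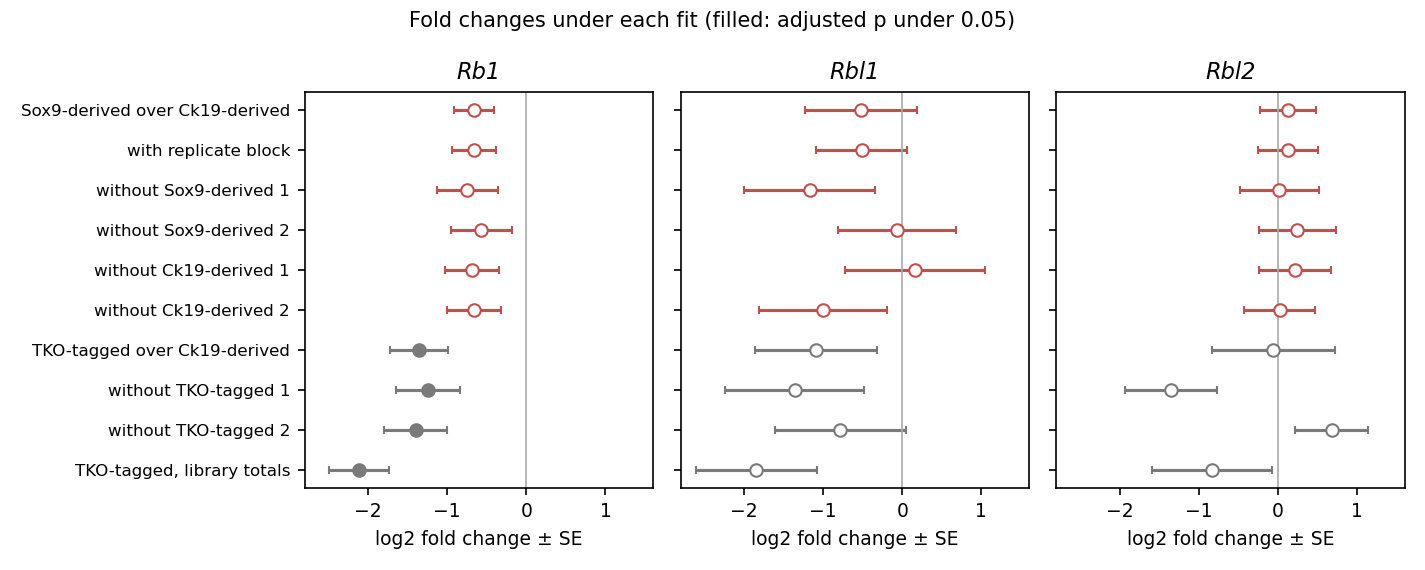
Log2 fold change with its standard error for Rb1, Rbl1 and Rbl2 in the organoid comparison (red) and in the comparison of the TKO-tagged with the Ck19-derived pair (grey), also without each library and under other settings. Filled points have an edgeR adjusted p under 0.05, which of the fits drawn holds for the 4 of Rb1 with the TKO-tagged pair. The fit of that pair with relative log expression factors, where Rb1 had an adjusted p of 0.0520, is not drawn.

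A last measure asked which genes had profiles most like each member over the 6 libraries, as the root-mean-square difference of log2(CPM + 0.5) centred on each gene's mean, among 11979 genes. The nearest to Rb1 were the pseudogene Ldha-ps (0.0665), Scamp1 (0.0694), which encodes a membrane protein of secretory vesicles, and Smyd2 (0.0890), a lysine methyltransferase gene. Counts of Ldha-ps are uncertain because its reads can match near-identical copies. It was also near the floor, at 0.150 and 0.201 CPM in the TKO-tagged libraries, against 2.10 and 2.02 CPM in the Ck19-derived libraries, so its distance depends on the 0.5 CPM added before the log. Nearest to Rbl1 were Ehbp1 (0.132), Mapk6 (0.144), an atypical MAP kinase gene, and Washc4 (0.181), a subunit gene of the WASH complex. Nearest to Rbl2 were Ermard (0.129), the interferon gamma receptor gene Ifngr1 (0.147) and the tetraspanin gene Cd9 (0.159). The members were less alike than these. Rbl1 was at 0.481 from Rb1, as the 2273rd nearest gene, and Rbl2 at 0.701, as the 5478th. The order of likeness changed without the TKO-tagged pair. Over the 4 organoid libraries alone Ldha-ps was the 11th nearest to Rb1, Mapk6 the 25th to Rbl1 and Ermard the 180th to Rbl2.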

How the data were processed

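The deposited values are raw counts of fragments per gene, produced by featureCounts v1.5.0-p3 per the file headers. The gene models were those of Ensembl 87 for GRCm38 (both ends mapped, primary alignments, mapping quality of at least 10, no strand). STAR 2.5.4b is among the tools of the submitters' processing notes. Exon lengths come from the same deposited tables. The summaries hold 0 fragments flagged as duplicates, and low mapping quality took 33.2% to 40.9% of fragments. Columns were tied to samples by name, and 4 columns that matched no label were not used. Symbols came from a GENCODE table (49326 of 49585 IDs). CPM were set on library totals. The table was fitted whole with edgeR 4.0.16 in R 4.3.3 (filterByExpr with a minimum count of 10, TMM factors, glmQLFit and glmQLFTest, 2 residual degrees of freedom, Benjamini-Hochberg over 16653 genes, two-sided, threshold 0.05). An SE is the size of the log2 fold change over the square root of F. All 3 members passed the filter. Alternatives used DESeq2 1.42.0, limma-voom (limma 3.58.1), other scaling and filters, a replicate block, and fits without each library.

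In data simulated from the Sox9-derived and Ck19-derived libraries, edgeR recovered 16% of genes changed 2-fold, 62% changed 4-fold and 96% changed 16-fold. There were 3 false calls of 140. The simulation held 16653 genes, of which only a small set was changed, picked from the better counted genes. Each gene varied by the trend over all genes, so spread particular to a gene was not simulated. Replicates differed by far more than sampling noise (chi-square per gene 62.8 to 412), so each library was kept. The members and the 7 pathway lists (93 entries) were chosen with earlier results of these data known. Named genes were the members, genes sharing exon bases with them, the 3 most alike by profile with a mean of at least 1 CPM, and up to 4 per list: called genes, then the largest fold changes. Some genes of the lists enter their counts and medians and are not reported here by name.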

Additional observations from a re-analysis of the deposited data

How the results depend on the processing

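In the organoid comparison no member was called under any setting tried. Leaving out each library in turn, log2 fold changes ran from −0.74 to −0.57 for Rb1, −1.17 to 0.16 for Rbl1 and 0.014 to 0.24 for Rbl2, and the number of genes called from 0 to 1394, with 0 calls without Ck19-derived replicate 1 or 2 (1692 and 1611 at an unadjusted p under 0.05). There the lone library is assumed to vary like the others. The count of 95 called genes was 97 with relative log expression factors, 93 with limma-voom, 1512 with DESeq2 and 506 with at least 1 count as the filter. The replicate differences of the Sox9-derived and Ck19-derived pairs had a correlation of 0.058 over 16653 genes. A single correlation over all genes cannot show whether libraries of the same replicate number share an origin. With a replicate block edgeR called 0 genes (2665 at an unadjusted p under 0.05), with Rb1 at −0.66, Rbl1 at −0.51 and Rbl2 at 0.12. With the TKO-tagged pair in place of the Sox9-derived pair 5190 genes were called. Settings added after seeing the data gave 6694 without TKO-tagged replicate 1, 6976 without replicate 2, 7118 with library totals and 5196 with relative log expression factors. In these 5 fits Rb1 stood at −1.36, −1.24, −1.40, −2.11 and −1.32, called in the first 4 (adjusted p = 0.0496, 0.0450, 0.0324 and 0.0136). Rbl2 stood at −0.059, −1.35, 0.68, −0.84 and −0.0039, against 0.13 in the organoids. Of 93 pathway genes edgeR called 0, with 22 at an unadjusted p under 0.05 (16.8% of all tested genes were). DESeq2 called 11 higher and 2 lower, against 649 higher and 863 lower of all 16653 tested genes. Limma-voom called 0, and edgeR 1 with at least 1 count as the filter. The cause of these shifts was not tested beyond the fewer libraries or other columns used. Depth limits Rbl1 most, with at most 129 fragments in a library. A coding length from protein sequences was not run.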

Other observations

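Mroh8, the nearest gene before the start of Rbl1 at a distance of 4016 bases and on the same strand, was looked at after its values were seen. It had 43 and 12 fragments in the Sox9-derived libraries and 31 and 13 in the Ck19-derived libraries, so replicate 1 was the higher in both pairs, as for Rbl1. The TKO-tagged libraries had 2 and 10 fragments. Gm14277, inside an Rbl1 intron on the other strand, had 29.6 and 28.1 CPM in the Sox9-derived libraries and 22.1 and 28.4 CPM in the Ck19-derived libraries, without that order. These values carry no test.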
